A study of Mus musculus with 4 samples.

Results

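The miR-297, miR-466, miR-467 and miR-669 families are groups of mouse microRNAs (miRNAs) whose hairpins lie mostly in an intron of Sfmbt2, a Polycomb-group gene. Their members were every row of the deposited count table whose name begins with one of these 4 family names, which gave 38 rows of 847. The rows were 2 of the miR-297 family, 14 of miR-466, 10 of miR-467 and 12 of miR-669. Over the 4 libraries, 3 of the 38 rows had at least 30 reads in some library, and the other 35 stayed under 30 reads in every library.

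The libraries held small RNA of macrophages sorted from bone marrow (BM) and spleen of C57BL/6J mice of 6 to 8 weeks. The AML mice had received GFP+ MLL-AF9 acute myeloid leukaemia cells without irradiation and were sampled at 18 days. The titles call the other samples normal, whereas the protocol text speaks of sorting leukaemia mice at 0 and at 18 days. Whether the normal samples came from untreated mice or from mice on the day of transplant was thus not clear, and every comparison with normal below carries this doubt. MLL-AF9 is a fusion oncogene that drives acute myeloid leukaemia (AML). Each combination of tissue and state had 1 library, so every difference given here compares 2 libraries, not 2 conditions, and lacks a check by replicates. The markers of the sort, the number of mice behind a library and whether BM and spleen came from the same mice were not given in the sources used here. Sorted cells were sequenced in bulk, so fewer cells of a type and less RNA per cell cannot be told apart.

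The Sfmbt2 cluster is among the largest miRNA clusters of the mouse genome and is found in rodents. It arose by repeated duplication of a block of hairpins, so many members share all or most of their sequence, and several mature miRNAs are encoded by more than 1 hairpin. Sfmbt2 is imprinted, with expression from the paternal allele, and the cluster is best known from the placenta, where it is abundant and needed for normal growth. miRNAs act through a seed, bases 2 to 8 of the mature strand, which pairs with target messenger RNAs. A hairpin can give a mature miRNA from its 5′ arm (5p), its 3′ arm (3p) or both.

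RefSeq (GRCm38.p6) lists 81 hairpin genes of the 4 families, of which 71 lie within Sfmbt2 on chromosome 2 and 10 elsewhere. None of the 71 overlaps an exon of Sfmbt2 in the GENCODE annotation of the same assembly, so all 71 are intronic. By gene name, 30 of the 38 rows have every hairpin within Sfmbt2, 4 have none there (both arms of miR-466i, miR-467f and miR-467h), and the 3 miR-466f rows have hairpins in both places. The row miR-466a-3p matched no RefSeq gene symbol. The label of the cluster thus does not hold for the member with the second highest number of reads, miR-466i-5p, whose hairpin gene Mir466i lies on chromosome 13 within Cdk13, a cyclin-dependent kinase gene. The hairpin of miR-467f lies within Fxr2 on chromosome 11, and that of miR-467h on chromosome 9 outside any listed gene. These places follow from the row names, and the locus that a read came from was not tested.

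The mature sequences below, from RefSeq, show dinucleotide repeats in single members. RefSeq's table matched 3 of the 38 members, all with hairpins outside Sfmbt2, and their seeds, in capitals, all differ. Sequences of the Sfmbt2-hosted rows and of the miR-297 and miR-669 families were not at hand, so these repeats are not shown for them.
miR-466i-3p: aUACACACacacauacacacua
miR-467f: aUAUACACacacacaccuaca
miR-467h: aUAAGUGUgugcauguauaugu
The strand of miR-466i-3p is at chr13:17747552-17747573 (+), that of miR-467f at chr11:69635419-69635439 (-) and that of miR-467h at chr9:115381898-115381919 (+). miR-466i-3p and miR-467f, from different chromosomes, share the 13-base run AUACACACACACA. The motif ACACACA, read on the miRNA strand, occurs in 0.298% of 1679 mouse mature sequences in the table, and these 2 members are among the 5 that hold it. The motif UGUGUGU, the other form of the repeat, occurs in 0.655%. Most members had no sequence in that table, so neither percentage counts them. RefSeq gave a sequence for 79.5% of the 847 rows of the count table. Among those outside the families, the row with this motif and at least 30 reads was miR-574-5p, shown here with the first UGUGUGU in capitals because its counts are set beside those of the members below.
miR-574-5p: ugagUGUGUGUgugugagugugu

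Library totals ran from 180227 reads in AML spleen and 206652 in normal BM to 271209 in AML BM and 435492 in normal spleen. Levels are given as CPM, reads per 1000000 of a library total scaled with edgeR's TMM factor, on which 1 read is worth between 2.55 CPM in normal spleen and 5.18 CPM in AML spleen. Ratios are on the log2 scale with a 95% exact conditional interval in brackets. Intervals and floors cover counting error only, since each group had 1 library. Reads carried no molecular identifiers, so copies of the same molecule would be counted separately and the intervals may be too narrow. A miRNA or a pool was called different when it differed at least 2-fold, the interval excluded a ratio of 1 and the larger library had at least 30 reads. The floor for a row at 0 reads is 3 reads per library, which is 14.5 CPM in normal BM.

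Reads of the 4 families were scarce in all libraries and scarcest in normal BM. All 38 rows together had 52 reads in normal BM, 256 in AML BM, 567 in normal spleen and 182 in AML spleen. These were 0.0252% (exact 95% interval 0.0188% to 0.0330%), 0.0944% (0.0832% to 0.107%), 0.130% (0.120% to 0.141%) and 0.101% (0.0869% to 0.117%) of the library. Normal BM thus lay below the other 3 libraries and normal spleen highest, and the intervals of AML BM and AML spleen overlapped. In scaled levels the pool stood at 251, 913, 1446 and 943 CPM in the same order. The most abundant member of each library ranked 194 of 847 rows in normal BM, 114 in AML BM, 96 in normal spleen and 120 in AML spleen.

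Reads were found for 8 of the 38 rows in normal BM, 21 in AML BM, 35 in normal spleen and 18 in AML spleen. At an equal depth of 180227 reads the expected number of rows with a read was 7.61, 18.7, 29.4 and 18.0 in that order, or 20.0%, 49.3%, 77.4% and 47.4% of the members. Over all 847 rows of the table the same quantity was 58.6%, 60.9%, 66.5% and 63.2%. The gap between normal BM and normal spleen in rows with a read was thus wider among the members than in the table as a whole. Of the 38 rows, 25 (65.8%) had their highest scaled level in normal spleen, against 34.4% of all 847 rows. Reads in normal spleen alone, the deepest library, were found for 10 members (26.3%) and for 14.3% of all rows. The members have few reads, so these counts depend on depth more than those of the whole table. A group of 7 members (18.4%) was at 0 in normal BM and had reads in each of the other libraries, against 6.02% of all rows. Every library held reads of 5 members (13.2%), against 41.2% of all rows.

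**Figure D1:**
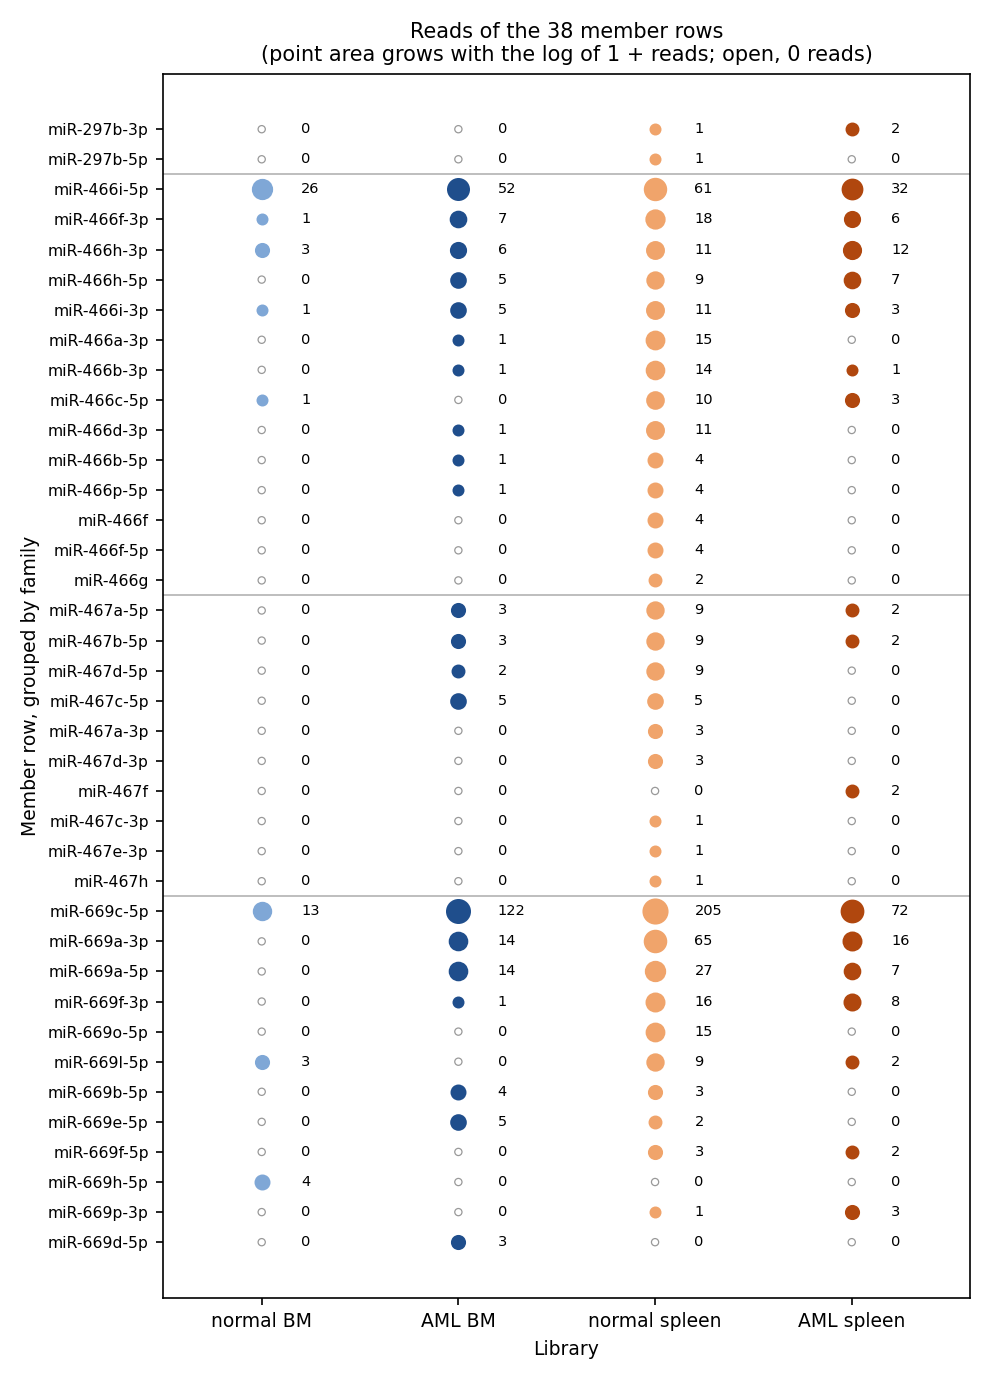
Reads of each of the 38 member rows (vertical axis, grouped by family) in each library (horizontal axis). The area of a point grows with the logarithm of 1 + reads, the printed number is the read count and open points are rows at 0. Normal BM shows 8 rows with reads and normal spleen 35.

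The leading row of the miR-669 family was miR-669c-5p, a miRNA known to be raised in the liver of old mice. It had 13 reads in normal BM, 122 in AML BM, 205 in normal spleen and 72 in AML spleen. Its levels were 62.7, 435, 523 and 373 CPM, so that normal BM stood apart from the other 3 libraries. This row alone held 25.0% of the member reads in normal BM, 47.7% in AML BM, 36.2% in normal spleen and 39.6% in AML spleen.

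Next in this family, miR-669a-3p, an arm of a miRNA known to act on the myogenic factor MyoD, encoded by 12 hairpins in Sfmbt2, had 0, 14, 65 and 16 reads in normal BM, AML BM, normal spleen and AML spleen. The other arm, miR-669a-5p, had 0, 14, 27 and 7 reads. Both arms were thus without a read in normal BM and highest in normal spleen. Summed without miR-669c-5p, a pool formed after the values were seen, the remaining 11 rows of the family had 7, 41, 141 and 38 reads, with levels in the same order as those of miR-669a-3p.

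The miR-466 family was led by miR-466i-5p, the row whose hairpin lies outside Sfmbt2, with 26 reads in normal BM, 52 in AML BM, 61 in normal spleen and 32 in AML spleen. Its levels of 125, 185, 156 and 166 CPM had overlapping counting intervals in all libraries, unlike those of miR-669c-5p. In normal BM this row made up 50.0% of all member reads, against 20.3% in AML BM, 10.8% in normal spleen and 17.6% in AML spleen. The row miR-466f-3p had 1, 7, 18 and 6 reads in the same order, and miR-466h-3p had 3, 6, 11 and 12 reads. Of the 6 rows with the most reads, miR-466h-3p was the only one with its highest level in AML spleen, at 62.2 CPM.

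The miR-467 family, of which miR-467b is known to act on lipoprotein lipase in macrophages, had no read in normal BM. Its 10 rows summed to 13 reads in AML BM, 41 in normal spleen and 6 in AML spleen, with at most 9 reads in any row. The rows miR-467a-5p and miR-467b-5p had the same counts in every library (0, 3, 9 and 2), as had miR-466b-5p with miR-466p-5p, and miR-466f with miR-466f-5p. Whether the same reads were counted in more than 1 of these rows was not tested. The miR-297 family had 2 reads in each spleen library and none in either BM library. The 32 rows other than the 6 with the most reads had a median of 0 reads in both BM libraries and in AML spleen and of 4 in normal spleen, with 25 reads at most over the 4 libraries. Among them, miR-669h-5p was the only row of the 38 with reads in normal BM alone (4 reads).

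**Figure D2:**
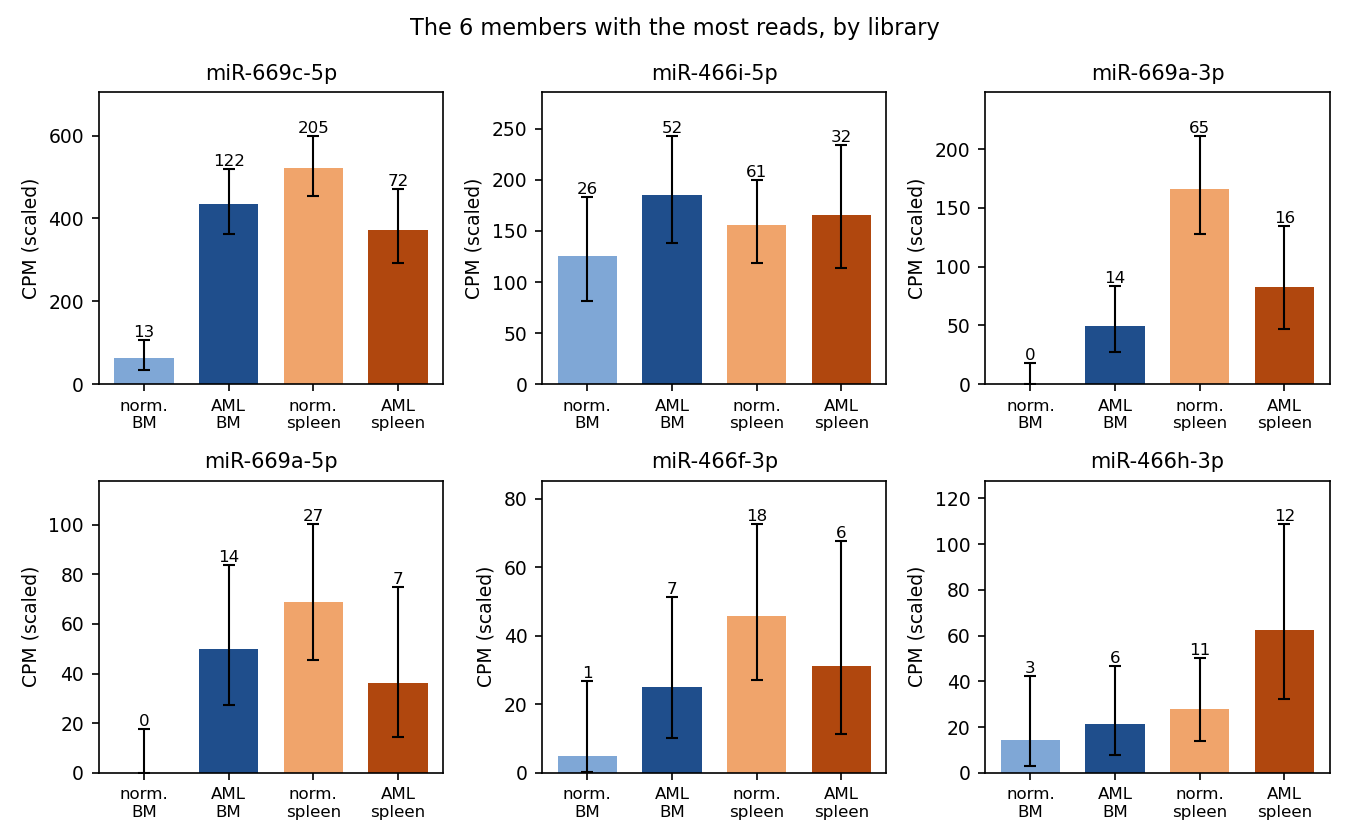
Scaled level in CPM (vertical axis, from 0) of the 6 members with the most reads in each library (horizontal axis), with the read count above each bar. Error bars are 95% exact Poisson intervals of 1 library each. miR-669c-5p ranges from 62.7 CPM in normal BM to 523 CPM in normal spleen, whereas miR-466i-5p ranges from 125 to 185 CPM.

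The comparison of leukaemic with normal BM asks how these miRNAs differ between leukaemia-associated macrophages and those at homeostasis. The pooled families were 3.64-fold higher in AML BM, a log2 ratio of 1.86 [1.43 to 2.32]. Of 2 members with enough reads to compare, miR-669c-5p was higher, at 6.94-fold (log2 ratio 2.80 [1.97 to 3.74]). The other, miR-466i-5p, at 0.56 [-0.14 to 1.30], was not called. Of all 216 miRNAs compared, 13.4% were called higher and 25.5% called in either direction, with a median log2 ratio of 0.00292. The value of miR-669c-5p was at rank 3 of the 216. Both members passed the minimum of 30 reads through AML BM alone, the library with their higher level. Counting all 38 rows by level alone, 21 stood higher in AML BM, 3 lower and the rest at 0 in both, against 38.5% higher and 37.4% lower of all 847 rows. Of these 21 rows, 16 had no read in normal BM, a shallower library than AML BM. The miR-669 family as a pool stood at 2.59 [1.92 to 3.34], 581 against 96.4 CPM. The miR-466 pool, at 0.89 [0.28 to 1.53], did not reach 2-fold. The miR-467 pool, with 13 reads against 0, had too few reads for a call. Against the floor this pool was 3.20-fold higher, with an exact lower limit of 1.17 on the log2 scale. With a minimum of 10 reads in place of 30, 3 of 4 members were called higher, and 29.4% of 316 miRNAs in the table were called in either direction. The added members were both arms of miR-669a at 14 reads against 0, which likewise passed through AML BM alone.

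In the spleen the same comparison ran the other way and was smaller. The pooled families had a log2 ratio of AML to normal spleen of -0.62 [-0.87 to -0.37], a 1.53-fold lower level that did not reach 2-fold. None of the 3 members compared was called, against 46.3% of 216 miRNAs in the whole table, whose median log2 ratio was -0.25. The log2 ratio was -0.49 [-0.89 to -0.09] for miR-669c-5p and 0.09 [-0.57 to 0.73] for miR-466i-5p, the latter turning to -0.15 with DESeq2 size factors. For miR-669a-3p, with 16 reads against 65, it was -1.0 [-1.89 to -0.19], just short of 2-fold, and -1.24 with DESeq2 size factors, which made it a call. As a pool the miR-467 family was lower, with 6 reads against 41, at -1.75 [-3.28 to -0.51] on the log2 scale. The miR-466 and miR-669 pools stood at -0.45 [-0.89 to -0.03] and -0.63 [-0.95 to -0.32]. By level alone, 28 of the 38 rows (73.7%) stood lower in AML spleen and 8 higher, against 50.5% lower among all 847 rows. Of these 28, 18 had no read in AML spleen, the shallowest library. Rows lower and without a read there made up 47.4% of the 38 members and 25.9% of all 847 rows.

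**Figure D3:**
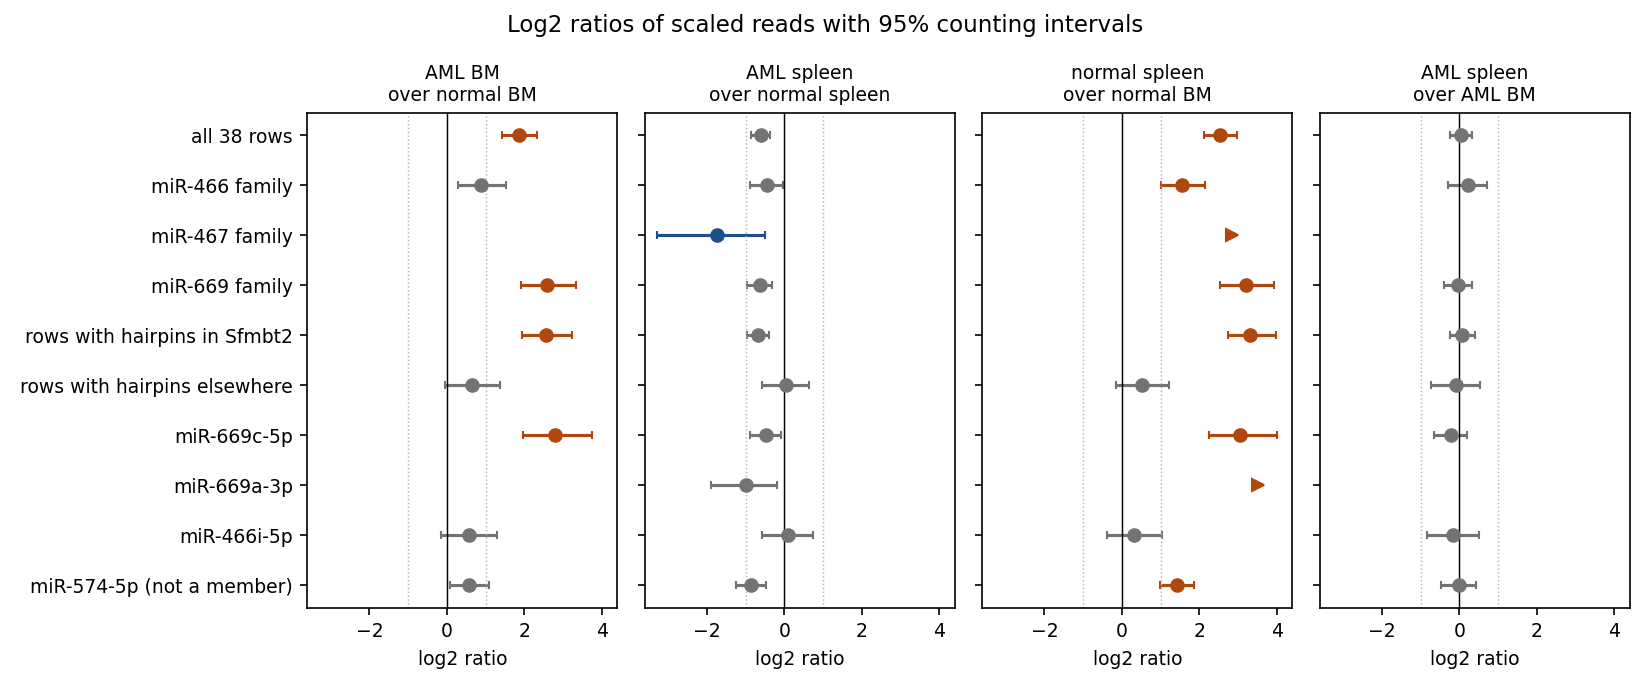
Log2 ratio of scaled reads (horizontal axis) for pools and single rows (vertical axis) in the 4 comparisons, with 95% counting intervals. Red marks a higher call, blue a lower call, grey neither, an arrowhead the ratio to the floor for 0 reads, and a missing point under 30 reads. Dotted lines stand at 2-fold. The pool of all 38 rows lies at 1.86 for the BM, -0.62 for the spleen, 2.53 between the normal tissues and 0.05 between the AML tissues.

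Between the normal tissues the spleen library had 5.77 times the pooled level of the BM library, a log2 ratio of 2.53 [2.12 to 2.97]. This comparison shares its normal BM library with that of AML BM, and its normal spleen library with that of AML spleen. Of 3 members compared, 2 were higher in normal spleen, miR-669c-5p at 3.06 [2.25 to 3.99] and miR-669a-3p with 65 reads against 0. Against the floor miR-669a-3p was 11.5-fold higher, with an exact lower limit of 3.18 on the log2 scale. Higher calls made up 30.8% of 234 miRNAs over the table, and calls in either direction 66.2%. Both rows entered the comparison through their reads in normal spleen, the library in which they are high. The row miR-466i-5p stood at 0.31 [-0.37 to 1.03]. As pools, the miR-669 family stood at 3.19 [2.54 to 3.92] and the miR-466 family at 1.56 [1.01 to 2.15]. The miR-467 pool, with 41 reads against 0, was 7.23-fold higher against the floor, with an exact lower limit of 2.49 on the log2 scale.

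Between the leukaemic tissues the pools of families were not called different. The pooled families had a log2 ratio of AML spleen to AML BM of 0.05 [-0.24 to 0.33] and this comparison shares its libraries with those of AML against normal. Neither of the 2 members compared was called, against 35.1% of 211 miRNAs in the table, and their log2 ratios were -0.22 [-0.66 to 0.21] for miR-669c-5p and -0.16 [-0.84 to 0.50] for miR-466i-5p.

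An additive model of tissue and state over all 4 libraries, with 1 residual degree of freedom, gave no call for the members. With edgeR's quasi-likelihood test, 0 of 3 members and 0.0% of 246 miRNAs passed an adjusted p of 0.05 for the AML effect, and the same counts held for the spleen effect. No member had an unadjusted p under 0.05 with edgeR. For the AML effect miR-669c-5p had a log2 fold change of 1.09 (edgeR adjusted p = 0.998) and for the spleen effect 1.36 (edgeR adjusted p = 0.758). The AML ratio of this row had opposite signs in the BM and the spleen, for which an additive model has no term. For the spleen effect of miR-669a-3p, 2.84 with edgeR, the unadjusted p was 0.191 with edgeR, 0.0357 with DESeq2 and 0.0477 with limma, and the DESeq2 and limma adjusted p were 0.351 and 0.513.

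Rows hosted by Sfmbt2 and rows hosted elsewhere are described here side by side, a split made after the counts were seen and so given without a test. The 30 rows with every hairpin in Sfmbt2 had 24 reads in normal BM, 191 in AML BM, 453 in normal spleen and 139 in AML spleen, or 116, 681, 1155 and 720 CPM. The 4 rows hosted elsewhere had 27, 57, 73 and 37 reads, or 130, 203, 186 and 192 CPM. The Sfmbt2-hosted rows thus spanned a wide range of levels, while the sum of the others had overlapping counting intervals in all libraries. That sum is mainly 1 row, since miR-466i-5p held 26 of its 27 reads in normal BM, 52 of 57 in AML BM, 61 of 73 in normal spleen and 32 of 37 in AML spleen. The other arm of the same hairpin, miR-466i-3p, had 1, 5, 11 and 3 reads, or 4.82, 17.8, 28.1 and 15.5 CPM, and was thus lowest in normal BM and highest in normal spleen, as the Sfmbt2-hosted rows were. Among the Sfmbt2-hosted reads, miR-669c-5p held 122 of 191 in AML BM. The log2 ratio of AML to normal BM was 2.56 [1.94 to 3.23] for the Sfmbt2-hosted rows and 0.64 [-0.04 to 1.36] for the rows hosted elsewhere.

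Set against each other within a library, where no scaling enters, Sfmbt2-hosted rows made up 47.1% (Wilson 95% interval 34.1% to 60.5%) of the reads of both groups in normal BM. They made up 77.0% (71.4% to 81.8%) in AML BM, 86.1% (82.9% to 88.8%) in normal spleen and 79.0% (72.4% to 84.3%) in AML spleen.

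Reads from rows named 3p made up a larger part of the member reads in the spleen libraries than in the BM libraries, a pooling also made after the counts were seen and given without a test. Rows named 3p had 5 reads in normal BM, 36 in AML BM, 171 in normal spleen and 51 in AML spleen, and rows named 5p had 47, 220, 389 and 129. The 3p share was 9.62% (Wilson 95% interval 4.18% to 20.6%) and 14.1% (10.3% to 18.9%) in the BM libraries and 30.5% (26.9% to 34.5%) and 28.3% (22.3% to 35.3%) in the spleen libraries, normal before AML. Several 3p rows, such as miR-669a-3p, have a 5p row of the same name. Others, and miR-669c-5p, the row with the most reads, have no row for the other arm. These shares thus do not separate which miRNAs were present from which arm of a hairpin was kept. Among Sfmbt2-hosted rows without miR-669c-5p, which is a 5p row, the 3p share was 27.3%, 33.3%, 51.6% and 62.7% in normal BM, AML BM, normal spleen and AML spleen, the first from 11 reads.

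The 3p and 5p rows of the same miRNA can be set side by side within the AML libraries and normal spleen. For miR-669a, a name shared by 12 hairpins, these are not arms of a single hairpin. Its 3p row had 14 reads and its 5p row 14 in AML BM, 65 and 27 in normal spleen, and 16 and 7 in AML spleen. The log2 odds ratio of AML spleen against AML BM was 1.17 [-0.67 to 3.11], which includes 0. For miR-466i the 3p and 5p arms had 5 and 52 reads in AML BM, 11 and 61 in normal spleen, and 3 and 32 in AML spleen. For miR-466h they had 6 and 5 reads in AML BM, 11 and 9 in normal spleen, and 12 and 7 in AML spleen.

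**Figure D4:**
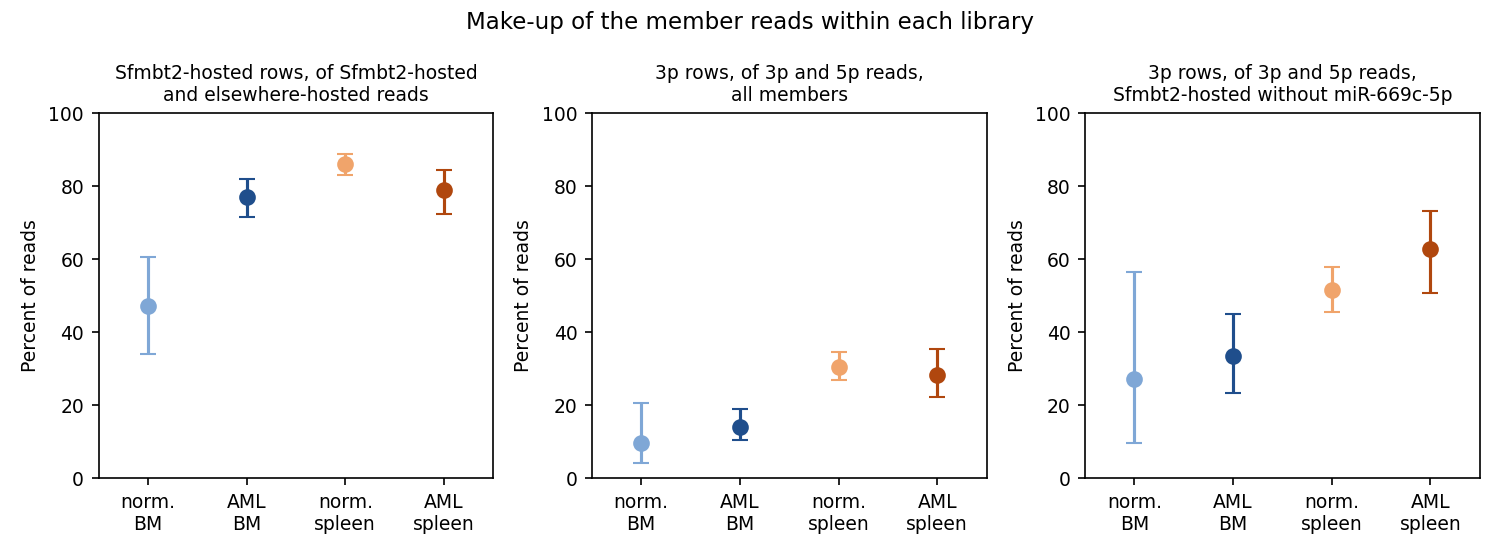
Percent of reads (vertical axis, 0 to 100) in each library (horizontal axis), with Wilson 95% intervals. The left panel gives Sfmbt2-hosted rows among Sfmbt2-hosted and elsewhere-hosted reads, the middle panel 3p rows among 3p and 5p reads of all members, and the right panel the same for Sfmbt2-hosted rows without miR-669c-5p. Normal BM is lowest in the left panel at 47.1%, and both BM libraries lie below both spleen libraries in the middle and right panels.

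The row miR-574-5p, a repeat-bearing miRNA of another locus, had 52 reads in normal BM, 104 in AML BM, 262 in normal spleen and 71 in AML spleen. It was thus lowest in normal BM and highest in normal spleen, like the Sfmbt2-hosted rows. Its log2 ratios were 0.56 [0.07 to 1.07] for AML against normal BM, 1.41 [0.98 to 1.87] between the normal tissues and -0.86 [-1.26 to -0.48] for AML against normal spleen, where the Sfmbt2-hosted pool stood at 2.56, 3.32 and -0.68. The other 5 rows outside the families found to hold UGUGUGU, among rows with a RefSeq sequence, had at most 7 reads in a library. The miRNAs of the early embryo and trophoblast, such as the miR-290 to miR-295 cluster, had 2 rows in the table, miR-293-5p with 6 reads in normal BM alone and miR-291a-5p with 4 in AML spleen alone. The imprinted Dlk1-Dio3 cluster, 41 rows, had its lowest level in normal spleen, at 643 CPM against 1577 in normal BM, 1123 in AML BM and 2130 in AML spleen, so the library with the highest level of the 4 families had the lowest of this cluster.

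Markers of other cell types also differed between the libraries, some sums in the members' order and others against it. Summed reads of 5 lymphocyte miRNAs were 1.69% of normal BM, 4.44% of AML BM, 9.45% of normal spleen and 4.90% of AML spleen, in the order of the members' share, and their defining miR-150-5p had 9910 reads in normal spleen and 1676 in AML spleen, above both BM libraries. The sum of 4 myeloid miRNAs followed the same order, at 0.0726%, 0.186%, 0.646% and 0.266%, which its miR-142a arms carried. The defining miR-223-3p had only 10, 12, 28 and 4 reads and miR-223-5p 42, 149, 36 and 10, both in another order. The 9 stromal and endothelial miRNAs made up 3.23%, 2.30%, 0.330% and 2.38%, and the 3 muscle miRNAs 3.57%, 1.08%, 0.208% and 1.31%. The sum of 5 erythroid miRNAs ran from 1.41% to 1.67%. Their defining miR-451a made up 0.514% of normal BM, 0.119% of AML BM, 0.0427% of normal spleen and 0.197% of AML spleen. It was thus highest in normal BM, where the members were lowest, and lowest in normal spleen, where the members were highest. The sum of 6 epithelial miRNAs ran from 0.170% in normal spleen to 1.34% in normal BM. Between the same libraries, miR-122-5p of the liver ran from 0.0843% to 0.689% and 3 miRNAs linked to MLL leukaemia from 0.510% to 3.33%. The stromal and endothelial sum and the muscle sum were likewise lowest in normal spleen and highest in normal BM. The defining miR-200c-3p (epithelial) had 69, 50, 161 and 41 reads and miR-196b-5p (MLL leukaemia) 80, 196, 34 and 5, both in another order. Every list had all its rows in the table, and none of the defining miRNAs was at 0 in any library. The part of these cells in the values of the members was not tested.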

How the data were processed

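Small RNA libraries from sorted macrophages were sequenced on an Illumina HiSeq, per the labels' protocols. The authors deposited 1 table with a count and a TPM value for every miRNA, per the file headers. Each deposited TPM value equalled the count divided by the library total times 1000000, with no length term, and only counts were analysed. The aligner, counting tool, build and miRNA annotation were not given in the sources used here, nor how reads matching several rows were counted.

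Groups came from the sample titles, with 1 library each. Libraries were scaled with TMM factors (edgeR 4.0.16, R 4.3.3) of 1.00 for normal BM, 1.03 for AML BM, 0.900 for normal spleen and 1.07 for AML spleen. Ratios and odds ratios have 95% exact conditional intervals (scipy 1.17.1). Calls were made over the whole table. The additive model used edgeR's quasi-likelihood test on 246 miRNAs with at least 30 reads in some library, with DESeq2 1.42.0 and limma 3.58.1 as alternatives and Benjamini-Hochberg adjustment. Ratio and model scripts were tested on simulated data. Every row with at least 30 reads in some library was named, and of the others the 3 with the most reads, plus rows singled out after their values were seen. The members and lists were chosen with earlier results of these data known.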

Additional observations from a re-analysis of the deposited data

Results flagged for a closer look

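For the miR-669 family, the miR-466 family and the pools that hold them, the AML-to-normal ratio was above 1 in the BM and below 1 in the spleen. Each value here is the log2 AML ratio of the spleen minus that of the BM, with an exact interval for counting error, and the difference was not tested across replicate libraries, of which there were none. For all 38 rows pooled it was -2.48 [-3.0 to -1.97], and for the rows with every hairpin in Sfmbt2, a pool formed after the values were seen, -3.23. For the miR-669 family it was -3.21 [-4.03 to -2.46], for that family without miR-669c-5p, also formed afterwards, -2.96, and for miR-669c-5p alone -3.27 [-4.31 to -2.33]. The miR-466 family had a smaller gap of -1.33 [-2.11 to -0.58]. The miR-467 family also had opposite signs, but with 0 reads in normal BM its gap has only an upper limit, -2.41. For miR-669a-3p and miR-669a-5p, also at 0 there and opposite in sign, the upper limits were -2.06 and -1.74. Not every member had opposite signs. The log2 AML ratio of miR-466i-5p was 0.56 in the BM and 0.09 in the spleen, a gap of -0.46 [-1.46 to 0.51], and that of miR-466h-3p, from at most 12 reads, 0.56 and 1.15, a gap of 0.61 [-2.34 to 3.23]. These pools overlap in their rows and are not independent.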

How the results depend on the processing

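Of 36 alternative values of the pooled ratios, 35 kept their direction and their side of the 2-fold threshold. The exception was AML spleen against AML BM, which turned from 0.05 to -0.11 with only rows of at least 30 reads. Without miR-669c-5p the pooled ratio of AML to normal BM was 1.35. No paired analysis was possible because each group had 1 library, so no replicate number repeats. The additive model has tissue as a term and so compares AML with normal within tissue. Comparing each distinct mature sequence once was not run, since sequences were at hand for 3 members. Rows hosted by Sfmbt2 only, identical rows counted once and leaving out miR-466i-5p were chosen after seeing the data.

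Pooled shares for normal BM, AML BM, normal spleen and AML spleen were 0.0116%, 0.0704%, 0.104% and 0.0771% with only Sfmbt2-hosted rows, and 0.0126%, 0.0752%, 0.116% and 0.0832% without miR-466i-5p. For AML BM, normal spleen and AML spleen they were 0.0693%, 0.0760% and 0.0666% with only rows of at least 30 reads, and 0.0494%, 0.0831% and 0.0610% without miR-669c-5p. With matching rows counted once, normal spleen had 0.108%.

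With a minimum of 10 reads, 3 of 4 members were called in AML BM against normal BM (29.4% of the table). The count was 3 of 13, all lower, in AML spleen against normal spleen (45.9%). It was 8 of 13 in normal spleen against normal BM (62.4%) and 1 of 5 in AML spleen against AML BM (35.4%). The 3 lower rows passed this minimum through normal spleen alone, the library in which they are high. Apart from miR-669c-5p, the rows called between the normal tissues passed in the same way. The row called between the AML tissues, miR-466h-3p, passed through AML spleen alone, where it is higher. These directions were thus favoured by the filter. A minimum of 100 reads left 1 member compared and called between the normal tissues (64.0%). With DESeq2 size factors 1 of 3 members was called in AML spleen against normal spleen (55.1%), miR-669a-3p at -1.24, while miR-466i-5p turned to -0.15. That scaling moved all ratios of this comparison by -0.24, and total counts by 0.25. The additive model called 0 members under each of its 8 alternatives. Over the whole table it called no row either, except 12 of 246 for the spleen effect with DESeq2. Most rows held fewer than 10 reads, so depth limits any statement on single rows.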
